A study of Homo sapiens with 6 samples.

Results

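Transcripts of 38 genes for the protein core of the spliceosome and its LSM relatives were followed in TC28a2, a human chondrocyte line made to grow without limit, after forced expression of the zinc finger transcription factor ZEB1. The 38 genes were taken by name as rows of a table of 28395 genes, and all 38 were present. The study has 2 groups of 3 libraries. One group was transfected with a control vector and the other with a ZEB1 overexpression vector, and total RNA was taken from both after 48 h and read by DRUG-seq, a low-cost RNA-seq method for many samples in parallel. The labels give neither the vector's backbone nor its promoter. Separate cultures are not stated for the replicates, so each p-value covers the spread among 6 libraries, part of which may be technical. In bulk RNA, a change in some cells and a smaller change in all cells cannot be told apart.

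The spliceosome removes introns from pre-mRNA and is built from small nuclear ribonucleoproteins (snRNPs), each a short uridine-rich RNA with bound proteins. The U1, U2, U4 and U5 RNAs, and U11 and U12 of the minor spliceosome, are held in a ring of Sm proteins, and U6 is held in a related ring of LSM proteins. Each snRNP also carries proteins of its own, such as the SF3A and SF3B complexes of U2, which settle on the branch point, and PRPF8, EFTUD2 and SNRNP200 of U5, which work at the catalytic core. A second LSM ring, with LSM1 in place of LSM8, works in the cytoplasm on mRNAs that are being degraded.

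The control libraries held 5359200 to 5878640 counts. Replicates 1, 2 and 3 with the ZEB1 vector had lower totals of 1277632, 1621270 and 3316228. ZEB1 itself rose in all 3 ZEB1 libraries, from 24.9 ± 6.64 CPM (counts scaled to one common library size) to 11069 ± 3724 CPM (SD, n = 3), a log2 fold change of 8.79 with an edgeR adjusted p of 2.37e-13. The labelled cell type had thin support from its defining genes: of 12 chondrocyte markers, 10 had a count and 1, SOX9, had enough to be tested, at 67.3 ± 14.5 CPM across control libraries against 68.3 ± 8.88 CPM across ZEB1 libraries (SD, n = 3), while COL9A1 and CNMD were at 0. The cartilage matrix genes ACAN and COL2A1 had 13 and 11 counts over the 6 libraries. In control replicates 1, 2 and 3 these were 7, 0 and 6 for ACAN and 3, 0 and 8 for COL2A1. Both were at 0 in every ZEB1 library, but those libraries were shallower, so no difference between groups can be read from this. The 12 chondrocyte markers summed to 56.1 to 86.8 CPM in the controls and 61.1 to 82.6 CPM in the ZEB1 libraries. Of 8 epithelial markers 2 had enough counts to be tested, and KRT18 was the highest. Their summed level was 931 to 1027 CPM in the controls and 878 to 1019 CPM in the ZEB1 libraries. For 7 leukocyte markers it was 47.3 to 52.7 against 28.4 to 43.7 CPM, with CD3E at 0, and for 6 endothelial markers 1.44 to 2.77 against 8.64 to 9.0 CPM. The last 2 sums did not overlap between groups, and their part in the results was not tested.

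Genes for small snRNP proteins mostly had higher values in the ZEB1 libraries and genes for large ones mostly lower, but none passed the test over all genes. The Sm ring genes SNRPE, SNRPG and SNRPD2, the U2 branch point gene SF3B6 and LSM3 had the largest log2 fold changes of the 38, between 0.60 and 0.84 for ZEB1 vector over control vector. SF3B2, SNRNP70, SF3A3 and PRPF8, which encode large proteins of U2, U1 and U5, had values from -0.34 to -0.17. Of the 37 genes with enough counts to be tested, 25 had a higher and 12 a lower mean with ZEB1, and the median log2 fold change was 0.14 against -0.014 over all 11329 genes tested. With library size as the only scaling, 21 were higher and 16 lower, and the medians were 0.0071 for the 37 and -0.14 for all genes.

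In edgeR's quasi-likelihood test with Benjamini-Hochberg adjustment over all 11329 genes, 0 of the 37 passed an adjusted p of 0.05, where 0.00883% of all genes tested (1 gene, ZEB1) passed. The smallest edgeR adjusted p among the 37 was 0.202, for SF3B6. At an unadjusted p under 0.05 there were 10 with higher and 1 with lower values, where the shares of all genes tested were 5.83% and 3.57%. The ZEB1 libraries were all higher than the highest control for 6 genes (background 6.96%) and all lower than the lowest control for 2 (background 8.16%), and the groups overlapped for the other 29. The number of calls changed with the method and with 1 library. DESeq2, which adjusted over 1982 genes, called 7 of the 28 it adjusted, all higher (background 9.33%), and edgeR without ZEB1 replicate 3 called 6 of 37, all higher (background 2.4%). Limma-voom with quality weights called 5, also all higher (background 1.27%), and plain limma-voom called 1 of 37, SNRPG, also higher (background 0.477%).

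**Figure D1:**
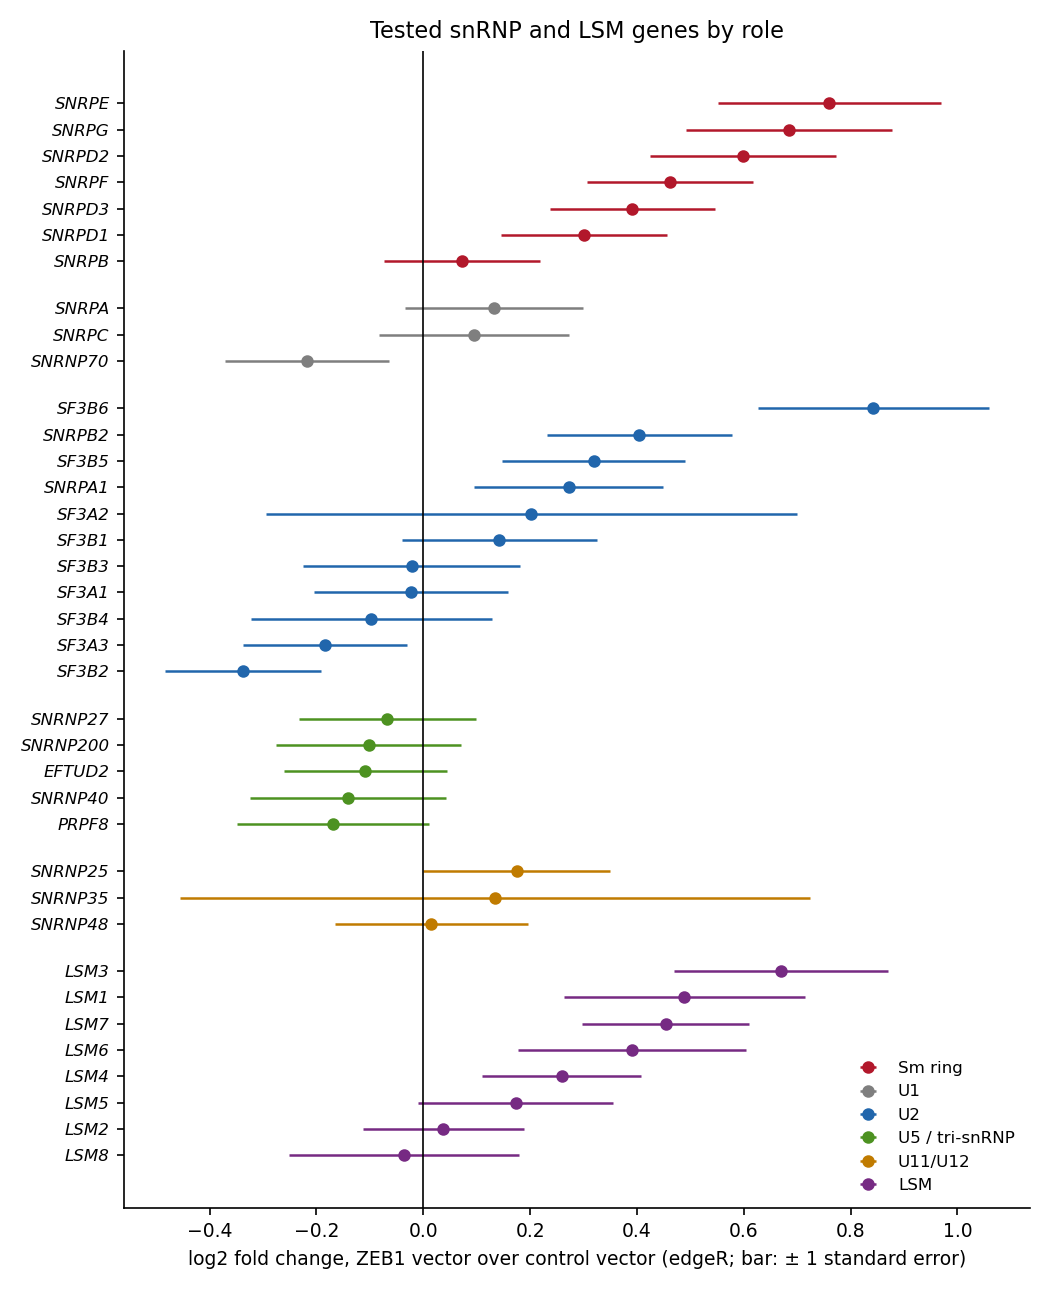
Log2 fold change (x axis, ZEB1 vector over control vector, edgeR fit on 3 libraries a group) of each of the 37 tested genes, grouped by role and coloured by it; points are estimates and bars are 1 standard error to either side. The Sm ring and most LSM genes sit right of 0, SF3B6 is farthest right at 0.84, and the 5 U5 and tri-snRNP genes sit left of 0, none of them past the adjusted threshold.

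The Sm ring is made of 7 proteins that close around the Sm site of an snRNA, and its 7 tested genes all had a higher mean with ZEB1, with a median log2 fold change of 0.46. With library size as the only scaling, SNRPB had -0.068 and the other 6 stayed above 0. For 4 of the 7, SNRPD1, SNRPD2, SNRPD3 and SNRPF, the 3 ZEB1 libraries lay above the 3 controls (background 6.96%). The ring's median was 0.31 without ZEB1 replicate 1 and 0.55 without replicate 3.

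SNRPE (Entrez 6635, chromosome 1, 203861599 to 203871152, GRCh38.p14), which encodes the Sm protein E, had 1408, 1743 and 1561 counts in control replicates 1, 2 and 3, against 691, 713 and 970 in ZEB1 replicates 1, 2 and 3. Scaled to depth, that was 226, 318 and 255 CPM in the controls and 614, 458 and 289 CPM with ZEB1. ZEB1 replicates 1 and 2 were above every control, and replicate 3 lay within the control range. In edgeR this was a log2 fold change of 0.76 (SE 0.21), adjusted p = 0.223, and 0.47 to 1.00 when single libraries were left out.

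SNRPG (Entrez 6637, chromosome 2, 70281362 to 70293740), the Sm protein G, showed the same split between libraries. The controls had 2965, 3760 and 3401 counts, the ZEB1 libraries 1318, 1487 and 2145, or 476, 685 and 555 CPM against 1171, 956 and 639 CPM. ZEB1 replicate 3 was below the highest control, replicate 2. The edgeR fit gave 0.68 (SE 0.19) on the log2 scale, adjusted p = 0.225.

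SNRPD2 (Entrez 6633, chromosome 19, 45687454 to 45692316), which pairs with SNRPD1 in the ring, had 5384, 5359 and 6468 counts in control replicates 1, 2 and 3, against 2064, 2271 and 3682 in ZEB1 replicates 1, 2 and 3. In CPM the controls were at 864, 977 and 1056 and the ZEB1 libraries at 1834, 1460.4 and 1097, so the groups did not overlap, though ZEB1 replicate 3 exceeded the highest control by little. edgeR put its log2 fold change at 0.60 (SE 0.17), adjusted p = 0.235. SNRPF (Entrez 6636, chromosome 12, 95858952 to 95866140), the Sm protein F, had 3228, 3320 and 3728 counts in control replicates 1, 2 and 3, against 1070, 1159 and 2326 in ZEB1 replicates 1, 2 and 3. That gave 577 ± 51.4 CPM across control libraries against 796 ± 136 CPM across ZEB1 libraries (SD, n = 3), a log2 fold change of 0.46 (SE 0.16) and an edgeR adjusted p of 0.295, with no overlap between groups.

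SNRPD3 (Entrez 6634, chromosome 22, 24555650 to 24574971), the partner of SNRPB, had 2487, 2067 and 2333 counts in control replicates 1, 2 and 3, against 688, 754 and 1427 in ZEB1 replicates 1, 2 and 3. Its controls were close together, at 399, 377 and 381 CPM, and the ZEB1 libraries lay above them at 611, 485 and 425 CPM. Its log2 fold change in edgeR, 0.39 (SE 0.15), had an adjusted p of 0.411. SNRPD1, the remaining D protein, had 405 ± 41.1 CPM across control libraries against 499.8 ± 83.5 CPM across ZEB1 libraries (SD, n = 3), a log2 fold change of 0.30 (SE 0.16).

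SNRPB, which encodes the B and B' proteins and has the longest coding sequence of the tested ring genes (231 residues against 76 to 126), differed least. It had 8118, 7991 and 8041 counts in control replicates 1, 2 and 3, against 1741, 2249 and 4326 in ZEB1 replicates 1, 2 and 3, which is 1357 ± 86.5 CPM across control libraries against 1427 ± 130.2 CPM across ZEB1 libraries (SD, n = 3). This gave a log2 fold change of 0.072 (SE 0.15), and the ZEB1 libraries overlapped the controls. SNRPN, the paralog of SNRPB from an imprinted locus, was listed at 0 in all 6 libraries, as was SNURF, which shares that locus. The limit that a count of 0 allows, 3 counts, stood for 0.510 to 0.560 CPM in the controls and 0.905 to 2.35 CPM in the ZEB1 libraries, for counting error only and before TMM scaling. How the counting assigned reads shared by overlapping or near-identical genes is not given in the sources used here, so the 0 does not show that the locus is silent.

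**Figure D2:**
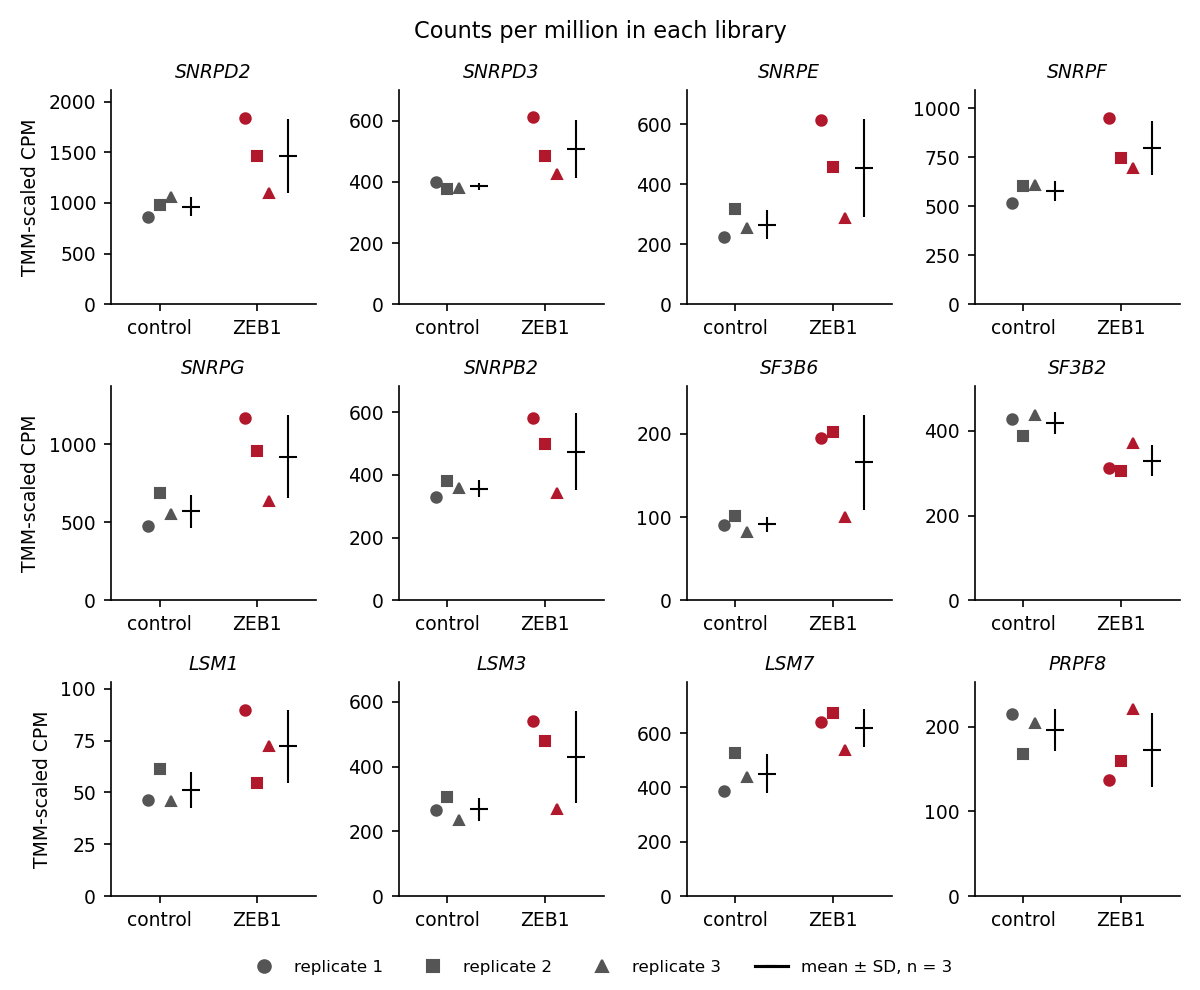
TMM-scaled CPM (y axis, from 0) of 12 genes in each library, with controls in grey and ZEB1 libraries in red; marker shapes give the replicate number and the black bars the mean ± SD of 3 libraries. In SNRPE, SNRPG, SNRPB2, SF3B6 and LSM3 the ZEB1 replicate 3 sits near the controls and replicates 1 and 2 above them, while in SF3B2 all 3 ZEB1 libraries lie below the controls.

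The 3 proteins particular to U1, the snRNP that recognises the 5′ splice site, had values on both sides of 0. SNRNP70, the protein that binds the first stem-loop of U1 RNA, had 2258, 1842 and 2330 counts in control replicates 1, 2 and 3, against 299, 454 and 1228 in ZEB1 replicates 1, 2 and 3, or 359 ± 22.3 CPM across control libraries against 308 ± 51.9 CPM across ZEB1 libraries (SD, n = 3). Its log2 fold change was -0.22 (SE 0.15), and ZEB1 replicate 3 overlapped the controls. SNRPA, which binds the second stem-loop, had 664, 701 and 651 counts in control replicates 1, 2 and 3, against 147, 181 and 424 in ZEB1 replicates 1, 2 and 3, a log2 fold change of 0.13 (SE 0.17). SNRPC, the zinc finger protein that steadies the contact with the splice site, had 0.094 (SE 0.18), which turned to -0.11 without ZEB1 replicate 1 and to -0.052 with library size as the only scaling. The smallest edgeR adjusted p of the 3 was 0.716.

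The U2 snRNP, which binds the branch point, held both ends of the range. Of its 11 genes, 6 had a higher and 5 a lower mean, and the median of 0.14 was -0.12 when all libraries were thinned to the depth of the shallowest. It was 0.0067 with library size as the only scaling, 0.0020 with limma-voom, and 0.029 and 0.051 without control replicates 2 and 3.

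SF3B6 (Entrez 51639, chromosome 2, 24067586 to 24076326), the small subunit of SF3B that contacts the branch point region, had 562, 555 and 505 counts in control replicates 1, 2 and 3, against 219, 315 and 337 in ZEB1 replicates 1, 2 and 3. The controls were at 90.1, 101 and 82.4 CPM and the ZEB1 libraries at 195, 203 and 100.4 CPM. Replicates 1 and 2 were about as far above the controls as each other, and replicate 3 lay just within the control range. In the edgeR fit the log2 fold change was 0.84 (SE 0.22), adjusted p = 0.202. Without ZEB1 replicate 3 it was 1.11, with an edgeR adjusted p of 0.00150. Without replicate 1 or 2 it was 0.70 or 0.65, neither past the threshold.

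SF3B2 (Entrez 10992, chromosome 11, 66052364 to 66069308), a large scaffold subunit of the same complex, had lower values with ZEB1. Its counts were 2671, 2129 and 2672 for control replicates 1 to 3, against 352, 474 and 1248 for ZEB1. That is 428, 388 and 436 CPM against 313, 305 and 372 CPM, with no overlap between groups. For SF3B2 edgeR gave a log2 fold change of -0.34 (SE 0.15), adjusted p = 0.476, and -0.44 to -0.29 when single libraries were left out. SF3A3, a subunit of SF3A, also lay below the controls in all 3 ZEB1 libraries, at 141, 139 and 156 CPM against 159, 164 and 175 CPM, a log2 fold change of -0.18 (SE 0.15).

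SNRPB2 (Entrez 6629, chromosome 20, 16730026 to 16742564), which binds U2 RNA together with SNRPA1, had 2050, 2091 and 2195 counts in control replicates 1, 2 and 3, against 654, 776 and 1143 in ZEB1 replicates 1, 2 and 3. For it edgeR gave 0.40 (SE 0.17) on the log2 scale, adjusted p = 0.470, and ZEB1 replicate 3 at 340.5 CPM lay inside the control range of 329 to 381 CPM. SNRPA1, its partner, had 0.27 (SE 0.18) and SF3B5, the smallest SF3B subunit, 0.32 (SE 0.17). SNRPA1 was at 0.12 without control replicate 1, and SF3B5 at 0.10 without ZEB1 replicate 1. SF3B1, the subunit that closes on the branch point and is often mutated in myeloid neoplasms, had 88.7 ± 13.0 CPM across control libraries against 98.3 ± 5.98 CPM across ZEB1 libraries (SD, n = 3), a log2 fold change of 0.14 (SE 0.18). SF3B3, SF3B4 and SF3A1 had -0.022, -0.10 and -0.022, all within 1 standard error of 0. SF3A2 had few counts, 83, 81 and 60 in control libraries against 30, 6 and 48 with ZEB1, and its value of 0.20 (SE 0.50) ranged from -0.37 to 0.63 on leaving out single libraries.

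Proteins of U5 and of the U4/U6.U5 tri-snRNP carry out the rearrangements that make the spliceosome active. All 5 of their genes had a slightly lower mean with ZEB1, with log2 fold changes of -0.17 to -0.067 and a smallest edgeR adjusted p of 0.838, and the groups overlapped in each. PRPF8, the scaffold of the catalytic core, was at 215, 168 and 205 CPM in the controls and 137, 159 and 221 CPM with ZEB1, so that ZEB1 replicate 3 was above every control and replicates 1 and 2 below every control. SNRNP200, the helicase that unwinds U4 from U6, was lower in ZEB1 replicate 1 alone, at 124 CPM against 169 to 194 CPM in the controls. EFTUD2, the GTPase of U5, had -0.11 (SE 0.15). SNRNP40, a WD-repeat protein of U5, had 540, 459 and 522 counts in control replicates 1, 2 and 3, against 79, 114 and 290 in ZEB1 replicates 1, 2 and 3, a log2 fold change of -0.14 (SE 0.18). SNRNP27, a small tri-snRNP protein, had 1619, 1401 and 1073 counts in control replicates 1, 2 and 3, against 249, 327 and 761 in ZEB1 replicates 1, 2 and 3, a log2 fold change of -0.067 (SE 0.17), and was within the control range in every ZEB1 library. Once transcript length and GC trends had been taken out library by library, the median of these 5 turned from -0.11 to 0.074. Over all genes tested, the median moved from -0.014 to 0.094 in the same step, and that of the 5 stayed below it.

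The 3 proteins of the U11/U12 particle, which reads the rare introns of the minor class, had log2 fold changes of 0.015 to 0.17. SNRNP25, a protein of U11, had 586, 653 and 635 counts in control replicates 1, 2 and 3, against 155, 174 and 369 in ZEB1 replicates 1, 2 and 3, a log2 fold change of 0.17 (SE 0.17). SNRNP48, which recognises the 5′ splice site of such introns, had 0.015 (SE 0.18). SNRNP35, the counterpart of SNRNP70, had 41, 30 and 59 counts in control libraries against 5, 22 and 18 in ZEB1 libraries. At that depth its value of 0.13 (SE 0.59) fixes no direction, and without ZEB1 replicate 2 it was -0.53.

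The LSM proteins form a nuclear ring, LSM2 to LSM8, on U6 RNA and a cytoplasmic ring, LSM1 to LSM7, on mRNAs that enter decay. Of the 8 genes, 7 had a higher mean with ZEB1 and LSM8 a lower one, with a median log2 fold change of 0.33; with library size as the only scaling LSM2 was also lower, at -0.10. That scaling gave a median of 0.19, and leaving out ZEB1 replicate 1 gave 0.20.

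LSM3 (Entrez 27258, chromosome 3, 14178817 to 14201122), a subunit of both rings, had 1654, 1678 and 1442 counts in control replicates 1, 2 and 3, against 610, 746 and 906 in ZEB1 replicates 1, 2 and 3. Scaled, the controls were at 265, 306 and 235 CPM and the ZEB1 libraries at 542, 479.7 and 269.9 CPM, with replicate 3 again inside the control range. For LSM3 edgeR gave 0.67 (SE 0.20) on the log2 scale, adjusted p = 0.239. LSM7 (Entrez 51690, chromosome 19, 2321521 to 2328586), also of both rings, had 2406, 2896 and 2686 counts in control replicates 1, 2 and 3, against 722, 1047 and 1811 in ZEB1 replicates 1, 2 and 3. All 3 ZEB1 libraries, at 642, 673 and 539 CPM, were above the controls, at 386, 528 and 438 CPM, and edgeR gave 0.45 (SE 0.16) on the log2 scale, adjusted p = 0.303. LSM4 was the other LSM gene without overlap, at 221 ± 24.5 CPM across control libraries against 265 ± 11.8 CPM across ZEB1 libraries (SD, n = 3), a log2 fold change of 0.26 (SE 0.15).

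The genes that tell the rings apart had values on either side of 0. LSM1, of the cytoplasmic ring, had 289, 337 and 281 counts in control replicates 1, 2 and 3, against 101, 85 and 243 in ZEB1 replicates 1, 2 and 3, or 46.4, 61.4 and 45.9 CPM against 89.7, 54.7 and 72.4 CPM. The fit in edgeR gave 0.49 (SE 0.23) on the log2 scale, adjusted p = 0.519, and ZEB1 replicate 2 lay inside the control range. LSM8, of the nuclear ring, had 73.1, 82.9 and 80.8 CPM in control libraries against 108, 69.4 and 59.0 CPM, with replicate 1 above and replicates 2 and 3 below every control, and a log2 fold change of -0.036 (SE 0.22). The difference between the pair was not tested. Of the shared subunits, LSM6 had 0.39 (SE 0.21), LSM5 0.17 (SE 0.18) and LSM2 0.038 (SE 0.15). LSM5 turned to -0.057 without ZEB1 replicate 1.

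The 3 ZEB1 libraries differed from each other as well as from the controls. The median log2 CPM of the 7 Sm ring genes, each relative to its control mean, was 0.72, 0.37 and 0.18 in ZEB1 replicates 1, 2 and 3 and -0.15, 0.10 and -0.027 in the controls. For the 8 LSM genes it was 0.55, 0.15 and 0.024 with ZEB1, and control replicate 2, at 0.18, was above ZEB1 replicates 2 and 3. The U5 and tri-snRNP genes were at -0.28, -0.21 and 0.021. Replicate 3, the deepest ZEB1 library, was thus nearest to the control mean for these 3 classes. Without replicate 1 the log2 fold changes were 0.47 for SNRPE, 0.40 for SNRPD2, 0.23 for SNRPD3, 0.15 for SNRPD1, 0.22 for SNRPB2, 0.32 for LSM1 and 0.16 for LSM6. For the large genes PRPF8 and SNRNP70 they were -0.036 and -0.13 without replicate 1, and -0.41 and -0.37 without replicate 3. Replicate 3 also held less ZEB1 than the other two, at 6894 CPM against 12267 and 14047 CPM. The part of depth and of the ZEB1 level in this order was not tested. In total the 7 Sm ring genes took 7324, 5993 and 4894 CPM with ZEB1 against 4528 ± 320.1 CPM without it (SD, n = 3).

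**Figure D3:**
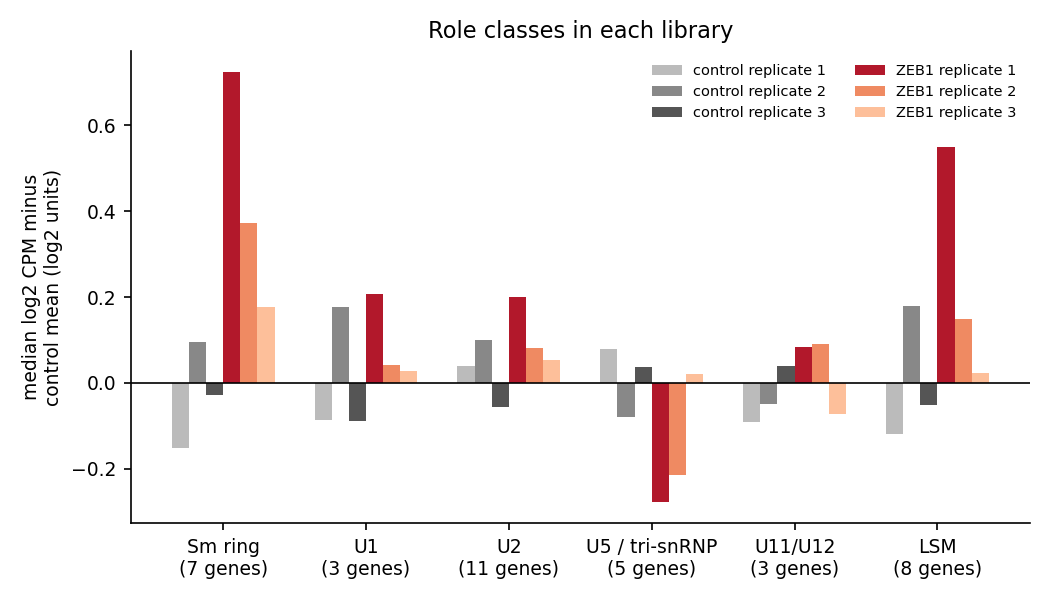
Median over the tested genes of each role class of log2 CPM minus the mean of the controls (y axis, log2 units), with 1 bar per library, controls in grey and ZEB1 libraries in red tones. ZEB1 replicate 1 has the tallest bars for the Sm ring (0.72) and LSM (0.55) classes and the lowest for U5 and tri-snRNP (-0.28), and replicate 3 is close to 0 in most classes.

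The sign of the fold change went with the size of the protein. Of the 19 genes for proteins of up to 160 residues, 17 were higher with ZEB1, with a median log2 fold change of 0.39. Of the 13 for proteins of over 300 residues, 10 were lower, with a median of -0.10. The 5 in between, SNRPA, SNRPA1, SNRPB, SNRPB2 and SNRNP35, were all higher, with a median of 0.13. The size limits were set after the values were seen. Across the 37 genes Spearman's rho between log2 fold change and coding length was -0.71, given as a description, since the genes share the same 6 libraries.

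The same order was seen, more weakly, over all genes with a known coding length. Over these genes the rho of log2 fold change was -0.20 with coding length, -0.12 with transcript length and -0.24 with GC content. Across the 37 snRNP and LSM genes it was -0.48 with transcript length and -0.26 with GC content. The median log2 fold change over all tested genes was 0.30 for the 730 with coding sequences of up to 450 bases and 0.064 for the 2159 of 451 to 900 bases. It was -0.036, -0.10 and -0.10 for those of 901 to 1800, 1801 to 3600 and over 3600 bases. The snRNP and LSM genes in these 5 bins had medians of 0.39, 0.13, -0.12, -0.11 and -0.062, from 17, 7, 6, 3 and 4 genes. Of these, 16, 6, 2, 0 and 1 were higher with ZEB1. Over all tested genes in the same bins, the shares higher were 76.2%, 57.0%, 45.7%, 39.5% and 38.2%. The largest distances from the median of their own bin were those of SF3B6 (0.54) and SNRPE (0.46). LSM8 (-0.34) and LSM2 (-0.26) were the short genes farthest below it.

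With the trends of transcript length and GC taken out, SNRPE went from 0.76 to 0.39, SNRPG from 0.68 to 0.24 and SF3B6 from 0.84 to 0.48. SNRPD2, at 0.51, and SNRPD3, at 0.44, moved less, and LSM3, for which the annotation gives a long transcript, reached 0.84. SNRNP200, PRPF8, EFTUD2 and SF3A1 turned from below to above 0, at 0.14, 0.074, 0.14 and 0.20. The median over all tested genes was 0.094 in this setting, and PRPF8 lay below it. The rho with coding length was then -0.28, though coding length itself was not among the trends taken out. What lies behind the order by length was not tested.

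**Figure D4:**
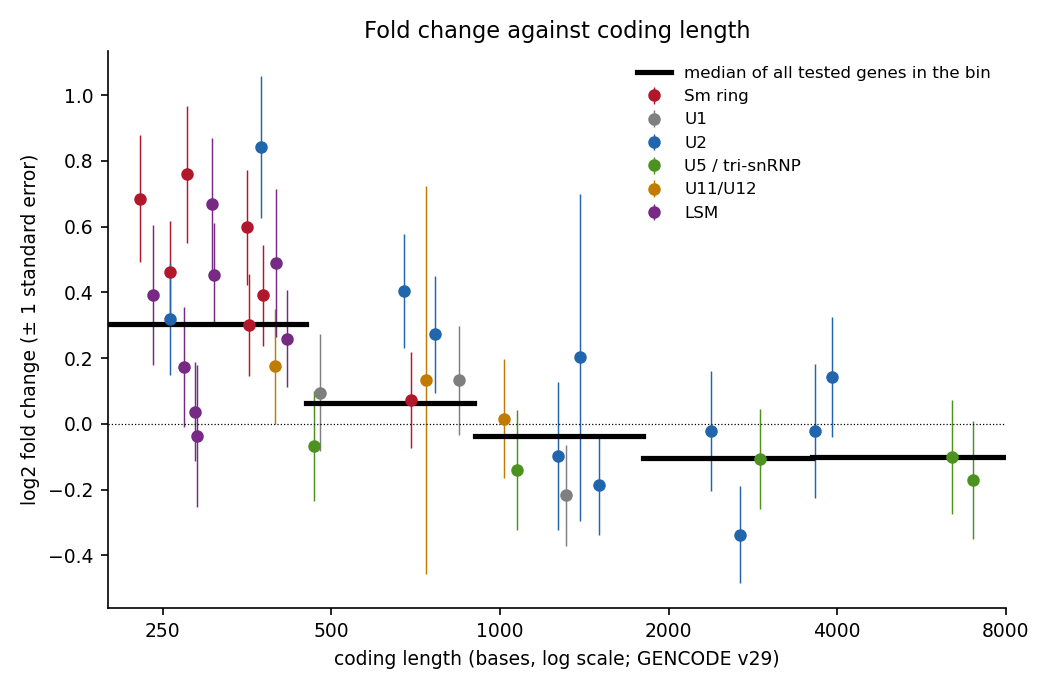
Log2 fold change (y axis; bars are 1 standard error to either side) against coding length in bases (x axis, log scale) for the 37 tested genes, coloured by role; thick black lines mark the median of all tested genes in each of 5 length bins. The short genes at the left lie around a black line at 0.30 and the long U2 and U5 genes at the right around lines near -0.10.

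Several of these genes share sequence with other loci, which bears on their counts. RefSeq lists 20 pseudogenes named for SNRPG, 20 for SNRPC and 11 for SNRPE, and the table holds rows for none of these. The values of SNRPG, SNRPC and SNRPE are uncertain to that extent, because how reads matching several loci were counted is not given in the sources used here. SNRPD3 overlaps GUCD1, SNRNP35 overlaps RILPL1, SF3A1 overlaps CCDC157 and EFTUD2 overlaps HIGD1B in the RefSeq table, and without the strand setting the reads of such pairs cannot be told apart. Over the 6 libraries GUCD1 had 1407 counts and RILPL1 106, against 9756 for SNRPD3 and 175 for SNRNP35, and CCDC157 and HIGD1B had 23 and 6.

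Promoter sequences were compared because ZEB1 binds E-boxes of the form CACCTG. RefSeq windows from 250 bases before to 50 after each start were at hand for 32 of the 37 tested genes. CACCTG or its complement CAGGTG was found in the windows of 5, 15.6%, against 22.7% of the 9139 tested genes with a window and 24.1% of all 27305 genes with a window. They were LSM5, LSM7, SF3A1, SF3A3 and EFTUD2, with log2 fold changes of 0.17, 0.45, -0.022, -0.18 and -0.11, on both sides of 0. The 4 matches before the start are shown 5′ to 3′ on the gene's strand with the E-box in capitals (GRCh38.p14, RefSeq), to let these 4 genes be compared.
LSM5 (chr7:32495466-32495525, - strand, first motif base 215 bases before the start): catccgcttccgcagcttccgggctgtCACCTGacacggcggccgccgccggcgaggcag
LSM7 (chr19:2328746-2328805, - strand, first motif base 192 bases before the start): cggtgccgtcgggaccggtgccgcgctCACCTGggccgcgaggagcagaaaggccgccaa
SF3A1 (chr22:30357103-30357144, - strand, first motif base 241 bases before the start): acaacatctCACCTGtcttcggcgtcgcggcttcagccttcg
SF3A3 (chr1:37990135-37990194, - strand, first motif base 145 bases before the start): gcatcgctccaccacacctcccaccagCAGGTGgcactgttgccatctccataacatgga

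A core bound by ETS family activators, CCGGAAG or its complement CTTCCGG, was searched for after the values were seen. It was in the windows of 17 of the 32 genes, 53.1%, against 23.8% of all tested genes with a window and 12.2% of all 27305 genes with a window. The median log2 fold change was 0.094 for the genes with it and 0.14 for those without. The windows shown, with the core in capitals, come from 2 ring genes, small and large U2 genes and the large U5 gene SNRNP200. They set genes with unlike fold changes side by side. SNRPB2, SF3B6 and SF3B2 hold further matches that are not shown. The log2 fold changes of the genes shown are 0.60 for SNRPD2, 0.072 for SNRPB, 0.40 for SNRPB2, 0.84 for SF3B6, -0.34 for SF3B2 and -0.10 for SNRNP200. A match is a run of letters, not evidence of binding.
SNRPD2 (chr19:45692347-45692406, - strand, first motif base 63 bases before the start): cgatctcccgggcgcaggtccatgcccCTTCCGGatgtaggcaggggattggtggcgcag
SNRPB (chr20:2470798-2470857, - strand, first motif base 41 bases before the start): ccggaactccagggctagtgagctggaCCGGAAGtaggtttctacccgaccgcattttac
SNRPB2 (chr20:16729904-16729963, + strand, first motif base 95 bases before the start): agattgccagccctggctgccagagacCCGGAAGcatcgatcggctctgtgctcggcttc
SF3B6 (chr2:24076453-24076512, - strand, first motif base 159 bases before the start): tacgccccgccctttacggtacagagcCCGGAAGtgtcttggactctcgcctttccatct
SF3B2 (chr11:66052284-66052343, + strand, first motif base 53 bases before the start): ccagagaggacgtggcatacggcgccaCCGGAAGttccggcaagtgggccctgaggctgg
SNRNP200 (chr2:96305551-96305610, - strand, first motif base 37 bases before the start): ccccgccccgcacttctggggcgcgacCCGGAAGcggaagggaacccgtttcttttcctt

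In 7 lists of other genes of the splicing pathway 0 genes passed the edgeR or limma-voom threshold over all genes, of 122 tested. DESeq2 called 1, SNU13, of the 66 it adjusted (background 9.33% higher), which held none of the decay factors. Among 20 other snRNP proteins, 10 of the 19 tested genes were higher and 9 lower, with a median of 0.053. SNU13, a small protein of U4 and of snoRNPs, had 0.59 (SE 0.16), edgeR adjusted p = 0.225, and lay above the controls in all 3 ZEB1 libraries, as did the U5 protein TXNL4A at 0.37 (SE 0.16). In the SMN complex and its partners, which load Sm rings onto snRNA, 10 of the 19 tested genes were higher and 9 lower, with a median of 0.017. STRAP had -0.011 (SE 0.15) and COPRS, a partner of the Sm methylase PRMT5, 0.36 (SE 0.20). In the PRP19 complex and the splicing helicases, 10 of the 22 tested genes were higher and 12 lower, with a median of -0.11. SYF2 had 0.22 (SE 0.15).

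For SR proteins and U2AF, which mark exons and the 3′ splice site, 9 of the 20 tested genes were higher and 11 lower, with a median of -0.079. SRSF3 had 0.072 (SE 0.15) and U2AF1 0.26 (SE 0.17). For hnRNP proteins the split was 10 higher and 10 lower, with HNRNPA1 at 0.040 (SE 0.14) and HNRNPA2B1 at 0.12 (SE 0.15). Among the decay factors that work with the cytoplasmic LSM ring, 5 of the 12 tested genes were higher and 7 lower, with a median of -0.018. LSM14A had 0.36 (SE 0.19) and the decapping scaffold EDC4 -0.31 (SE 0.20), the latter below the controls in all 3 ZEB1 libraries. In the exon junction complex, 5 of the 10 tested genes were higher and 5 lower, with a median of 0.0005. RBM8A, of its core, had 0.33 (SE 0.15) and PNN -0.12 (SE 0.17). At an unadjusted p under 0.05 these 7 lists held 5 higher and 6 lower of 122 tested genes, where the shares over all genes were 5.83% and 3.57%.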

How the data were processed

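RNA was measured in 3 control vector and 3 ZEB1 vector libraries of TC28a2 cells. The authors deposited raw counts per gene (Entrez gene IDs) in 1 table. Per the submitters' processing notes, the tools were HISAT2, featureCounts and Subread and the build GRCh38, with no versions. The sources used here do not give the strand setting, the annotation release or the treatment of molecular identifiers, so floors from counts may be too low. RefSeq GRCh38.p14 gave names and coordinates for 27745 of the IDs and none for 650.

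The test was that of edgeR 4.0.16 (R 4.3.3): quasi-likelihood test, robust dispersions, TMM factors, filterByExpr, group as the only term, two-sided p-values and Benjamini-Hochberg adjustment over the 11329 genes that passed the filter. Of the 38 genes 37 passed. Standard errors are approximate, being derived from F statistics. CPM were TMM-scaled, and log2 CPM used a prior count of 2. DESeq2 1.42.0, limma-voom (limma 3.58.1) and other settings were alternatives. For lengths and GC content, 1 transcript per gene was taken from GENCODE v29 (best APPRIS rank, then support level) and these were known for 94.5% of tested genes. The steps were tested on simulated counts.

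The genes, lists and tests were chosen with earlier results of these data known. All 38 genes are named; from other lists the 2 tested genes with the highest mean CPM are named. Some genes that these rules name are left out here. Counts in every library are given for genes with an unadjusted p under 0.05 and for the genes of highest and lowest mean CPM in each class. Same-numbered libraries did not deviate together (correlations -0.032, -0.0095 and 0.0087), so replicate numbers were not used to pair samples.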

Additional observations from a re-analysis of the deposited data

How the results depend on the processing

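Depth limits SF3A2 and SNRNP35, the tested genes of the 37 with the fewest counts. The number of genes past an edgeR adjusted p of 0.05, 1 of all genes and 0 of the 37, moved to 127 and 5 with no filter on low counts, 201 and 7 with DESeq2, 58 and 1 with limma-voom, and 154 and 5 with limma-voom and quality weights. It was 2 and 0 with length and GC trends removed, 71 and 1 (LSM3) with that and the replicate block, and 1 and 0 with the replicate block alone, which changed no other call. With no filter 18319 genes were tested, and 110 of the 127 calls were higher and 17 lower. With trends removed and the replicate block 11329 were tested, and 64 of the 71 calls were higher and 7 lower. Leaving out single libraries gave 1 to 409 genes and 0 to 6 of the 37, the highest without ZEB1 replicate 3. With the ZEB1 row removed, 0 genes passed edgeR, and an adjusted p of 0.1 called 1 and 0. The genes called most often, under 5 of 19 alternatives each, were SNRPG and LSM3; SNRPE, SNRPD2 and SF3B6 were called under 4 each, SNRPB2, SNRPF and LSM7 under 1 each, always higher. The cause of these differences was not tested. The median of the 37 was 0.0071 to 0.24 over all alternatives, lowest with scaling by library size alone. The rho with coding length was -0.71 and moved to -0.28 with trends removed and -0.31 with the replicate block as well. On leaving out single libraries the rho was -0.76 to -0.50, nearest to 0 without ZEB1 replicate 1. Thinning left out SNRNP35.

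Signs are given relative to 0. The median of all tested genes was 0.094 with length and GC trends removed, and 0.069 with the replicate block as well. Of the 37 genes 20 kept the sign of their log2 fold change under every alternative. The sign changed for 17, none of which was called in any setting. With library size as the only scaling they were SNRPB -0.068, SNRPC -0.052, SNRNP48 -0.12 and LSM2 -0.10; with no filter on low counts they were SNRNP48 -0.0076; with thinning they were SNRNP48 -0.049, SF3A2 -0.18, SF3B1 -0.12 and SF3B4 0.10; with limma-voom they were SNRNP35 -0.071, SNRNP48 -0.0023, SF3A1 0.0020 and SF3A2 -0.072; with limma-voom and quality weights they were SF3A1 0.020, SF3A2 -0.22 and SF3B3 0.0042; with length and GC trends removed they were SNRPC -0.046, SNRNP70 0.014, SNRNP200 0.14, LSM2 -0.051, SF3A1 0.20, SF3B3 0.16, SF3B4 0.040, PRPF8 0.074 and EFTUD2 0.14; with these trends removed and the replicate block they were SNRPC -0.047, SNRNP70 0.013, SNRNP200 0.13, LSM2 -0.051, SF3A1 0.22, SF3B3 0.16, SF3B4 0.051, PRPF8 0.068 and EFTUD2 0.14. On leaving out single libraries the values that crossed 0 were -0.11 to 0.24 for SNRPC, -0.23 to 0.018 for SNRNP27, -0.53 to 0.40 for SNRNP35, -0.021 to 0.056 for SNRNP48, -0.22 to 0.062 for SNRNP200, -0.060 to 0.13 for LSM2, -0.057 to 0.28 for LSM5, -0.31 to 0.14 for LSM8, -0.15 to 0.046 for SF3A1, -0.37 to 0.63 for SF3A2 and -0.22 to 0.16 for SF3B3.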

Other observations

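The controls differed among themselves along the same line as the groups. For the 19 genes of up to 160 residues the median log2 CPM relative to the control mean was -0.13, 0.18 and -0.048 in control replicates 1, 2 and 3, and for the 13 genes of over 300 residues 0.078, -0.080 and 0.038. Spearman's rho between coding length and log2 CPM relative to the control mean, across the 37 genes, was 0.65, -0.61 and 0.23 in these libraries and -0.73, -0.51 and -0.17 in ZEB1 replicates 1, 2 and 3. Control replicate 2 thus had a profile over protein size with the sign of the ZEB1 libraries and control replicate 1 the opposite one. Their totals were 5359200 and 5832751 counts, and the part of depth was not tested. These are descriptions, and the values of the 3 controls are tied to each other through their shared mean.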
